A study of Mus musculus with 21 samples.

Results

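The genes described here are 7 markers by which the neurons of the cochlear ganglion are divided into subtypes, followed through the development of that ganglion. They were chosen by name as known markers and found in the deposited table by their Ensembl identifiers, and all 7 were present among the 52550 genes counted. *Pcdh20* marks type Ia neurons, *Pou4f1*, *Runx1* and *Lypd1* mark the type Ib and Ic neurons, and *Th*, *Etv4* and *Anxa1* mark type II neurons. The rule itself used no measured value, but the genes were chosen with earlier results of these data known. The shares of them called below are therefore descriptions.

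Hair cells (HCs) of the cochlea signal to spiral ganglion neurons (SGNs), whose axons form the auditory nerve. Most SGNs are type I neurons, which contact inner HCs and fall into the Ia, Ib and Ic subtypes, and the small remainder are type II neurons, which contact outer HCs. The type I subtypes are known to diverge gradually between late embryonic and early postnatal life, and a bulk library of picked neurons averages over all of them. A lower level in such a library can mean fewer cells of a subtype or less RNA in each, and these cannot be told apart.

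Transcriptomes were measured in SGNs of 5 ages (E15.5 in the embryo, and P1, P8, P14 and P30 after birth), in inner ear HCs of P12 and in cochlear glia of P8, with 3 libraries in each of the 7 groups. The comparisons ask which genes change as SGNs mature and which set SGNs apart from the other cells. All mice were C57BL/6 and carried the Cre-dependent tdTomato reporter Rosa26-CAG-loxp-stop-loxp-tdTomato (Ai9). SGNs came from *ShhCre/+* mice, in which a Cre driven by the transient *Shh* expression of SGNs marks them, and 69 to 195 red neurons were picked by hand per library. HCs were labelled by *Atoh1*-CreER with neonatal tamoxifen and came from cochlear and vestibular organs together, about 1200 cells per library. Glia were labelled by *vGlut3*-iCreER with neonatal tamoxifen and picked by hand from the ganglion area, 86 to 125 cells per library. The HC and glia groups therefore differ from the SGNs in Cre line, tamoxifen and age as well as in cell type, and these cannot be told apart, although the glia share the age of the P8 SGNs. The labels do not say whether replicate libraries came from separate animals, so p-values measure only the spread between these libraries.

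Library totals ran from 10368240 to 37287489 counts, with a median of 20384100. Levels below are RPKM, that is, CPM (a count scaled to the library total) divided by the deposited gene length in kilobases, with library totals scaled by TMM (trimmed mean of M values, which aligns libraries on their shared genes). Separation of ages is stated on this scale, and some was lost in TPM, the length-scaled share of each library. There *Pou4f1* was 29.7 in the second E15.5 and 33.9 in the first P14 library. *Runx1* was 19.3 in the second E15.5 and 25.7 in the second P8 library. *Lypd1* was 64.8 in the third E15.5 and 50.6 in the first P8 library. *Th* was 3.76 in the third P8 and 4.51 in the first P30 library. *Etv4* was 18.9 in the third P1 and 17.6 in the first E15.5 library. It was also 1.29 in the first P30 and 2.36 in the second P8 library. *Runx1* was also 8.77 in the second P30 and 8.54 in the second P14 library. *Pcdh20* was 4.26 in the second P30 and 3.63 in the third P8 library. The limit of 3 counts corresponded to 0.0805 to 0.289 CPM depending on the library. Set against marker genes, the summed level of 5 neuronal markers (*Slc17a6*, *Slc17a7*, *Snap25*, *Tubb3*, *Rbfox3*) was 243 to 2616 in SGN libraries, 22.4 to 27.3 in HCs and 10.3 to 143 in glia. The sum of 4 HC markers was 376 to 394 in HCs and 11.5 to 49.3 in SGNs, and that of 4 glial markers was 4853 to 6685 in glia and 2.89 to 539 in SGNs. The first glia library held the neuronal sum of 143, against 10.3 and 17.2 in the others, and also the highest *Pou4f1*, *Runx1*, *Lypd1*, *Th* and *Etv4* of the 3 glia libraries. The part of neuronal RNA in those values was not tested.

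**Figure D1:**
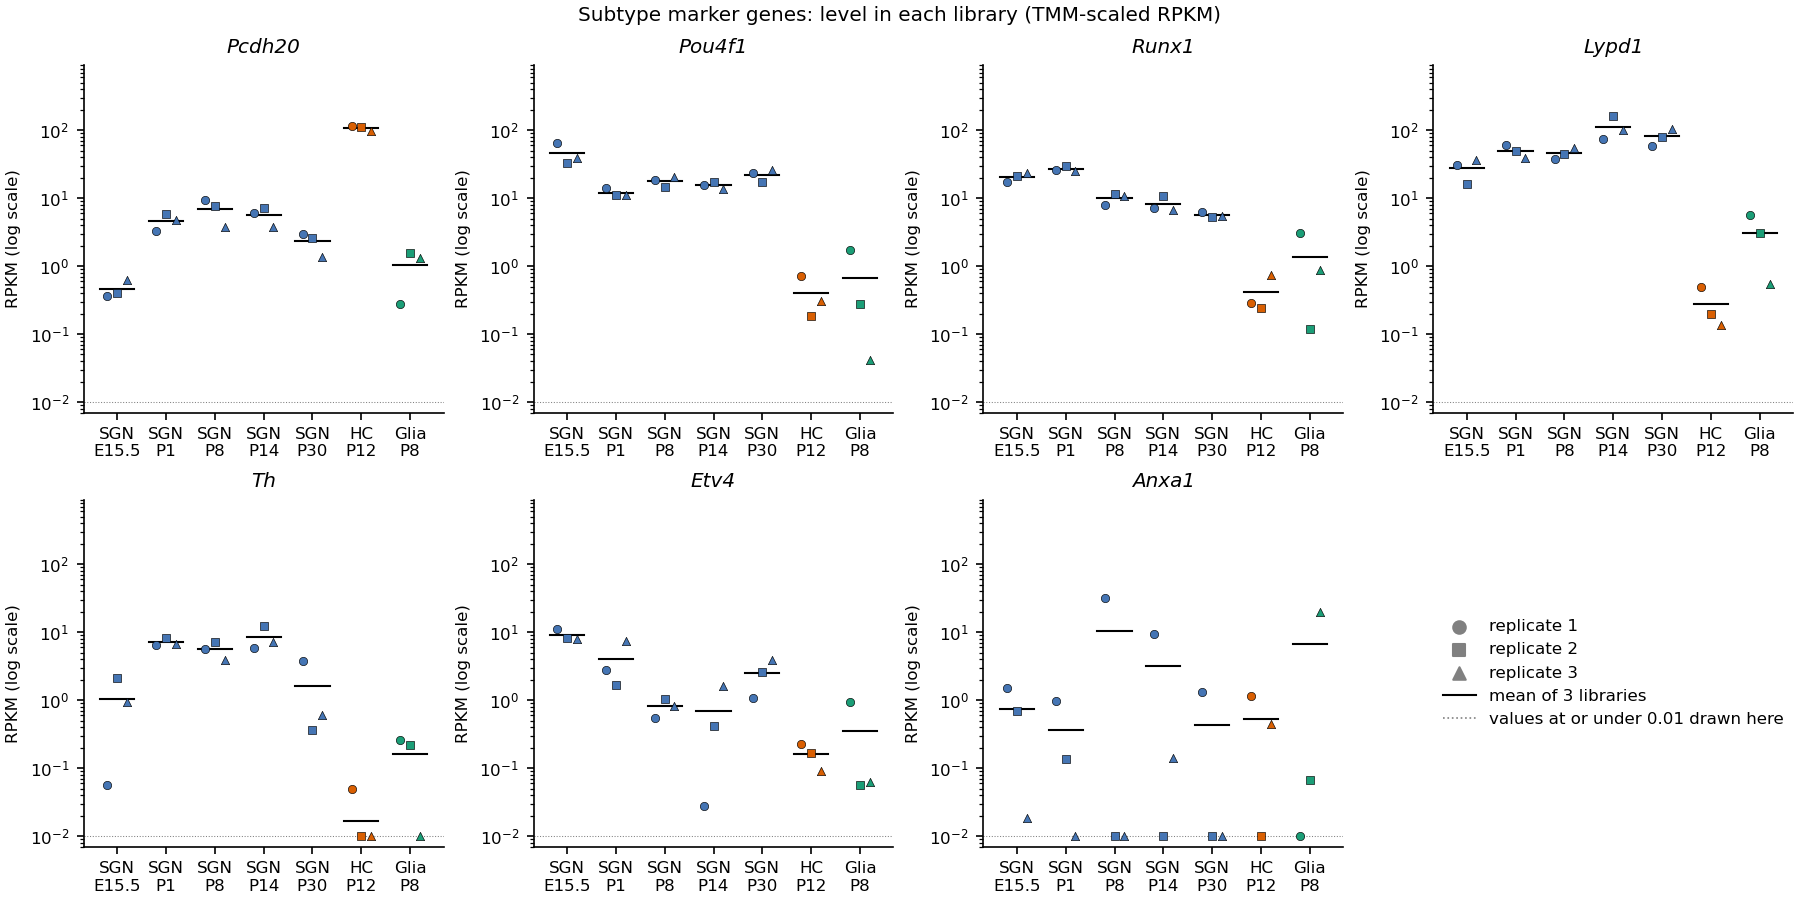
Level of the 7 subtype markers in every library, in RPKM on a log axis, by cell type and age, with a point for each library and a bar at the group mean. *Pou4f1*, *Runx1* and *Lypd1* were high in all 15 SGN libraries, *Pcdh20* was highest in the 3 HC libraries, and *Anxa1* scattered between 0 and 31.6 within the P8 SGNs.

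Averaged over the 15 SGN libraries, *Lypd1* stood at 63 ± 36.6 RPKM, *Pou4f1* at 22.6 ± 14, *Runx1* at 14.3 ± 8.57, *Th* at 4.78 ± 3.53, *Pcdh20* at 3.98 ± 2.77, *Etv4* at 3.45 ± 3.56 and *Anxa1* at 3.06 ± 8.26 (SD, n = 15). The levels of other listed markers did not sort by subtype, since the Ia markers *Mdga1* and *Calb2* stood at 260 ± 52.6 and 231 ± 182 RPKM, the type II marker *Ngfr* at 94.3 ± 21.3, and the Ic marker *Stac* at 0.371 ± 1.05. The SD in these values includes the change with age.

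Of the 7 genes, 6 passed the filter on low counts (above 1 CPM in all libraries of at least 1 group) and were tested by limma-voom, while *Anxa1* did not pass it in either set of libraries. In the test for any difference among the 5 ages (F test, adjusted p below 0.05), all 6 passed, where 37.8% of the 15113 genes tested did. *Pcdh20*, *Th* and *Etv4* each missed it in 1 of 24 alternative fits, with adjusted p of 0.0872, 0.0656 and 0.0521. Between successive ages, a change was called at adjusted p below 0.05 and more than 2-fold. From E15.5 to P1, 3 of the 6 were called (*Pcdh20* and *Th* higher, *Pou4f1* lower), against 8.26% of all genes. From P1 to P8, 1 of the 6 was called (*Runx1*, lower), against 7.44% of all genes. From P8 to P14 limma-voom called 0 of the 6, against 0.536% of all genes, with 1 at an unadjusted p below 0.05 (*Lypd1*), and the edgeR quasi-likelihood test called 0 and DESeq2 1. From P14 to P30 it called 0 of the 6, against 0.0596% of all genes, with 4 at an unadjusted p below 0.05 (*Pcdh20*, *Runx1*, *Th*, *Etv4*), and both other tools called 0. Between the ends of the series, E15.5 and P30, 4 of the 6 were called (*Pcdh20* and *Lypd1* higher, *Runx1* and *Etv4* lower), a share to be read against 34.6% of all genes. Few genes of any kind passed at either later step.

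**Figure D2:**
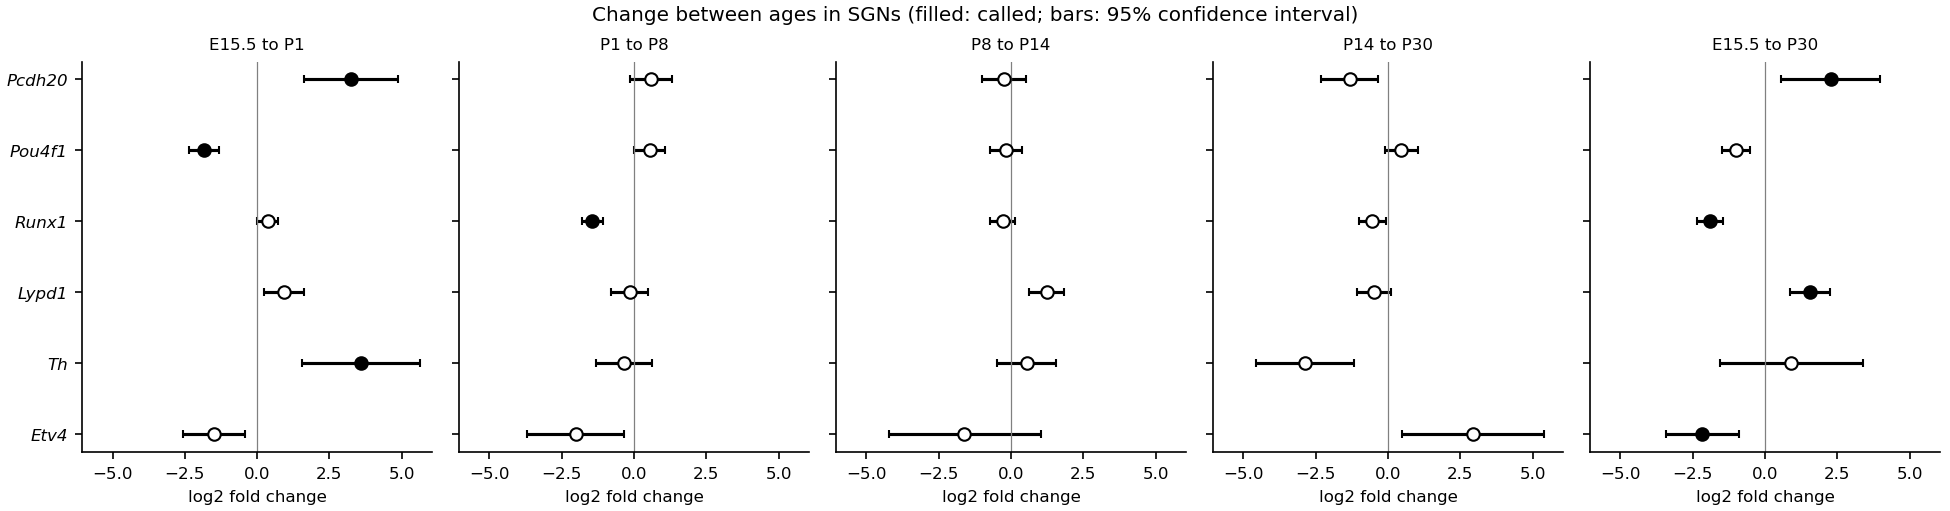
Change of the 6 tested markers between successive ages and from E15.5 to P30, as log2 fold change with its 95% interval from limma-voom, with filled points for the calls. The E15.5 to P1 step held 3 of the calls between successive ages and the P1 to P8 step held 1, and the intervals of *Th* and *Etv4* were the widest at the later steps.

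The 3 members called between E15.5 and P1 moved in the same step but in different directions, and the 250 bases before their transcription starts, taken from RefSeq on GRCm38.p6 and read on the gene's strand from 5′ to 3′, are shown to set them side by side. The capitals mark matches to 5 motifs searched on both strands (TATAAA, the cAMP response element TGACGTCA, the Runt site TGTGGT, the GC box GGGCGG and the ETS core CCGGAAGT). RefSeq windows were matched for 6 of the 7 members, and none was matched for *Etv4*.
Pcdh20 chr14:88471397-88471646: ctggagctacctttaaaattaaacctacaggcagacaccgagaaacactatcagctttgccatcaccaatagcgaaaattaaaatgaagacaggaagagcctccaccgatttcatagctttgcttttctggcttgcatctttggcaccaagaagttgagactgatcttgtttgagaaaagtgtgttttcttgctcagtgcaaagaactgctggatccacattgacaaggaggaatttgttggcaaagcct
Pou4f1 chr14:104468000-104468249: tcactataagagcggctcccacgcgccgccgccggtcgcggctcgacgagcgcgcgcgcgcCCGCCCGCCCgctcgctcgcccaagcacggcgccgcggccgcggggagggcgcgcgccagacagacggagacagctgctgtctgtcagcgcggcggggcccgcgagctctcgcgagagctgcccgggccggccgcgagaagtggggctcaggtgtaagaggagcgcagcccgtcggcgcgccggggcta
Th chr7:142899996-142900245: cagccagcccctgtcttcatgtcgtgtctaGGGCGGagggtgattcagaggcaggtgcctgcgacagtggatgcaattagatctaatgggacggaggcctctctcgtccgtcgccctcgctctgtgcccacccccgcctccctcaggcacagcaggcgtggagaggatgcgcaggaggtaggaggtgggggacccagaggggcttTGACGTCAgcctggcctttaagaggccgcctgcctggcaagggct
The *Pou4f1* window was 78% G and C with 47 CpG dinucleotides, and its ratio of observed to expected CpG, 1.24, was at percentile 99.7 of the 32851 mouse windows. That of *Pcdh20* was 42.4% G and C with 3 CpG dinucleotides and a ratio of 0.267, under the median of 0.373, and held none of the 5 motifs. That of *Th* was 64.4% G and C with 13 CpG dinucleotides, and held TGACGTCA at -45 from the start and a GC box at -220. TGACGTCA was present in 1.55% of all windows and the GC box, which *Pou4f1* held on the other strand at -189 and -185, in 32.7%. The RefSeq start of *Th* lies inside the longer GENCODE gene. These matches describe the letters of the windows only.

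*Pcdh20*, a delta-protocadherin that mediates adhesion between cells and marks type Ia neurons, is a protein-coding gene on the minus strand (chr14:88464743-88471396). This and all positions of genes below are those of the GENCODE M21 annotation of the mouse build GRCm38, which is mm10. Its level was 0.364, 0.405 and 0.616 RPKM in the E15.5 libraries and 3.24, 5.83 and 4.81 at P1. At P8 it was 9.29, 7.66 and 3.73, at P14 5.99, 7.08 and 3.75, and at P30 2.94, 2.6 and 1.37. Every later library lay above every E15.5 library, and the libraries of P1, P8 and P14 overlapped while those of P30 lay below all of them. *Pcdh20* rose 9.45-fold from E15.5 to P1 (log2 fold change 3.24 ± 0.77 SE, 95% interval 1.62 to 4.86, adjusted p = 0.0135). The difference from P14 to P30 had a log2 fold change of -1.32 (adjusted p = 0.52), and E15.5 to P30 one of 2.27 ± 0.82 SE (adjusted p = 0.0349). The E15.5 to P1 call was lost in 1 of 16 alternative fits (adjusted p = 0.116). That from E15.5 to P30 was lost in 9 of 16, in which the adjusted p reached 0.178. Those included the fits that left out any of the 3 E15.5 libraries, or the first or second P30 library. Such single-library fits had log2 fold changes of 2.00 to 2.50 and adjusted p of 0.0608 to 0.0947.

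The highest *Pcdh20* was found in HCs, at 116, 112 and 97.7 RPKM (mean 109 ± 9.64), while glia held 0.281, 1.53 and 1.3. The mean over SGN ages was 5.27 lower than in HCs on the log2 scale (log2 fold change -5.27 ± 0.21 SE, adjusted p = 2.93e-14), and P14 SGNs differed from P12 HCs by -4.29 ± 0.32 SE (adjusted p = 2.76e-09). As a share of the HC mean, *Pcdh20* in SGNs was 0.426% in the E15.5 group and then 4.26% (P1), 6.35% (P8), 5.16% (P14) and 2.12% (P30). Of the HC markers, the transcription factor gene *Pou4f3* stood at 0.972%, 7.88%, 6.14%, 7.26% and 5.21% of its HC level at the same ages, and *Gfi1* at 0.332%, 2.77%, 1.79%, 2.43% and 1.87%. The myosin gene *Myo6* stood at 6.17%, 12.5%, 10.7%, 10.7% and 7.95%, and *Myo7a* at 8.39%, 8.82%, 5.36%, 6.78% and 5.51%. None of these 4 followed the full order of ages of *Pcdh20*, as all had their highest mean at P1 and *Pcdh20* at P8. All but *Myo7a* had their lowest mean at E15.5, as *Pcdh20* did. The summed level of the 4 HC markers (*Myo6*, *Myo7a*, *Pou4f3*, *Gfi1*) ran from 11.5 to 18.9 in E15.5 libraries, 25.3 to 47.6 in P1, 21.5 to 29.6 in P8, 12.3 to 49.3 in P14 and 17.3 to 25.3 in P30 libraries, and the adjusted p of the F test among ages was 0.0639 for *Gfi1*, 0.1 for *Pou4f3*, 0.108 for *Myo6* and 0.651 for *Myo7a*. From E15.5 to P30 *Pou4f3* (log2 fold change 4.0, adjusted p = 0.0487) and *Gfi1* (2.71, adjusted p = 0.0361) were called higher. *Pou4f3* was at 0 in 1 library, the first E15.5 library. The library with the highest HC sum also had the highest *Pcdh20* at P1 (47.6 and 5.83 RPKM), P8 (29.6 and 9.29) and P30 (25.3 and 2.94). At P14 it had the middle *Pcdh20* value (49.3 and 5.99), and at E15.5 the lowest (18.9 and 0.364). The glial sum was highest in the library with most *Pcdh20* at E15.5 (78.5), P1 (62.9), P8 (539) and P30 (63.4), but not at P14. Within ages, the r of *Pcdh20* was 0.66 with the glial sum and 0.36 with the HC sum (log2 of RPKM plus 1). Glia themselves held a mean of 1.04 RPKM of *Pcdh20*. The parts of HC and glial RNA in the *Pcdh20* level of SGNs were not tested.

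The other delta-protocadherins did not share one direction. Of 9 listed genes 8 were tested by age, and 6 passed the F test, against 37.8% of all genes. From E15.5 to P30 *Pcdh9* (log2 fold change 2.30) and *Pcdh7* (1.18) rose while *Pcdh19* (-2.90) and *Pcdh1* (-1.68) fell, where 34.6% of all genes were called. *Pcdh9* reached a mean of 136 RPKM at P30, far above *Pcdh20* at 2.3 at that age. Among 4 other markers of Ia neurons, the calcium-binding protein gene *Calb2* rose from a mean of 6 RPKM at E15.5 to 353 at P30 (log2 fold change 5.80, adjusted p = 9.8e-07) and the glucuronyltransferase gene *B3gat1* also rose (1.23, adjusted p = 0.000704). *Rxrg*, a retinoid X receptor gene, fell (-1.65, adjusted p = 0.0124), and *Mdga1*, a membrane glycoprotein gene, was not called (-0.36, adjusted p = 0.0953). The Ia markers therefore did not move as 1 group, and *Pcdh20* was the only 1 of these 5 Ia markers that was called higher in HCs than in SGNs.

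*Pou4f1* encodes the POU-homeodomain factor Brn3a of sensory neurons and is retained in Ib and Ic neurons (chr14:104461676-104467999, minus strand). Its level was 64.4, 32.7 and 39.0 RPKM at E15.5, and 13.9, 11 and 11.2 at P1. The P8 libraries held 18.6, 14.4 and 20.7, the P14 libraries 15.6, 17.0 and 13.7, and the P30 libraries 23.6, 17.1 and 25.6. All E15.5 libraries lay above all later libraries, P1 had the lowest mean, and neighbours in the order P30, P8, P14 and P1 overlapped. *Pou4f1* fell 1.82 on the log2 scale from E15.5 to P1 (log2 fold change -1.82 ± 0.25 SE, 95% interval -2.34 to -1.31, adjusted p = 0.000361). No later step was called, and P1 to P8 gave 0.54 (adjusted p = 0.196). From E15.5 to P30 the log2 fold change was -1.0 ± 0.23 SE (adjusted p = 0.00284), which passed on p but fell just short of the 2-fold limit. That call was gained in 10 of 16 alternative fits, among them those without replicate 2 (-1.21) or 3 (-1.07) of E15.5 and without replicate 1 (-1.06) or 3 (-1.09) of P30.

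HCs held 0.721, 0.183 and 0.309 RPKM of *Pou4f1*, and glia 1.7, 0.279 and 0.0412. The mean SGN level was higher by 5.87 on the log2 scale than in HCs (adjusted p = 2.06e-06) and by 5.91 than in glia (adjusted p = 1.27e-05). The glia value rested on single libraries in size but not in call, with 7.33 without the first glia library and 4.63 without the third. Its HC relative *Pou4f3* showed the opposite order, with a mean of 140 RPKM in HCs, and a log2 fold change of -4.95 (adjusted p = 2.62e-10) between SGNs and HCs. Of the ganglion's other POU4 and ISL factors, *Isl1* (log2 fold change -1.22) and *Isl2* (-1.51) fell from E15.5 to P30. *Pou4f2*, with -0.72, passed the F test (adjusted p = 0.00316) but not the 2-fold limit between those ages. From P1 to P8 *Pou4f2* was called lower, with means of 24 and 11.6 RPKM.

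*Runx1*, a Runt-domain transcription factor gene of Ib and Ic neurons (chr16:92601466-92826149, minus strand), had the smallest spread between libraries of the 6 tested markers. Its level was 17.3, 21.2 and 23.4 RPKM at E15.5, 25.7, 29.2 and 25.4 at P1, and 7.84, 11.5 and 10.7 at P8. At P14 it was 7.25, 10.6 and 6.64, and at P30 6.14, 5.35 and 5.44. The P1 libraries were the highest, every library from P8 on lay below every E15.5 and P1 library, and P30 lay below P14. *Runx1* fell 1.44 on the log2 scale from P1 to P8 (log2 fold change -1.44 ± 0.17 SE, 95% interval -1.81 to -1.07, adjusted p = 7.32e-05). From E15.5 to P30 it fell by 1.90 on that scale (-1.90 ± 0.21 SE, adjusted p = 2.75e-06), while E15.5 to P1 gave 0.37 (adjusted p = 0.161) and P14 to P30 gave -0.54 (adjusted p = 0.669). Its within-age SD was 0.23 in log2 units, lower than in all but 9.04% of genes tested.

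HCs held 0.29, 0.239 and 0.736 RPKM of *Runx1* and glia 3.04, 0.117 and 0.863, and SGNs were higher by 4.97 (adjusted p = 1.6e-06) and by 3.88 (adjusted p = 3.05e-05) on the log2 scale. The glia difference was 5.24 without the first glia library and 2.66 without the second, still called. Exons of *Runx1* are overlapped by the opposite-strand gene *Gm26626*, and since the strand setting of the counting is not stated, its counts may include reads of that gene. The partner subunit gene *Cbfb*, whose product stabilizes Runt factors on DNA, moved the other way, from a mean of 47.9 RPKM at E15.5 to 127 at P30 (log2 fold change 1.34, adjusted p = 0.000539). The corepressor gene *Runx1t1* fell (-2.84, adjusted p = 7.88e-06). *Runx3* did not pass the filter, and *Runx2* was not called (-1.39, adjusted p = 0.548).

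*Lypd1* encodes a small GPI-anchored protein of the Ly6 family that modulates nicotinic acetylcholine receptors, and it marks Ic neurons (chr1:125867622-125913101, minus strand). Its level was 30.2, 16.1 and 35.8 RPKM at E15.5, 60.7, 50.1 and 38.8 at P1, and 37.8, 43.9 and 54.5 at P8. At P14 it was 73, 160 and 100, and at P30 58.4, 80.5 and 105. The libraries of all later ages lay above those of E15.5, P1 and P8 overlapped, and P14 lay above P8 without overlap while it overlapped P30. *Lypd1* rose from E15.5 to P30 (log2 fold change 1.55 ± 0.32 SE, 95% interval 0.87 to 2.24, adjusted p = 0.00126), which is 2.93-fold. The single step with the largest estimate, P8 to P14, gave 1.24 ± 0.29 SE and missed the threshold (adjusted p = 0.0533). It passed without the first P14 library (1.51, adjusted p = 0.0343).

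*Lypd1* was 0.495, 0.195 and 0.137 RPKM in HCs and 5.71, 3.02 and 0.547 in glia. SGNs were higher than HCs by 7.86 on the log2 scale (adjusted p = 2.5e-05) and higher than glia by 4.43 (adjusted p = 9.85e-05), or by 5.33 without the first glia library and 3.60 without the third, both still called. Exons of the opposite-strand gene *Gpr39* overlap those of *Lypd1*, so its counts may include reads from that gene. Its relative *Lynx1*, another modulator of nicotinic receptors, rose from a mean of 4.01 RPKM at E15.5 to 279 at P30 (log2 fold change 6.28, adjusted p = 9.79e-08). Of the 6 other Ly6 and lynx genes listed, 5 were tested and all 5 passed the F test, against 37.8% of all genes. However, *Lypd6b* (-2.27), *Ly6e* (-1.43) and *Ly6h* (-7.50) fell from E15.5 to P30. Among 8 nicotinic receptor subunit genes 7 were tested, and *Chrna6*, *Chrnb3* and *Chrnb4* were called higher at P30 than at E15.5. Of all genes 34.6% were called between those ages, in either direction. *Chrna6* went from a mean of 0 to 17.3 RPKM and *Chrnb3* from 0.0709 to 29.7. The other Ic markers *Grm8* and *Ntng1* were not called between those ages (log2 fold changes -0.60, adjusted p = 0.178, and -0.69, adjusted p = 0.0957), and *Stac* did not pass the filter by age. *Grm8* did pass the F test, and was called lower from E15.5 to P1 and higher from P1 to P8. Its means at those ages were 3.38, 1.47 and 3.14 RPKM. The Ib markers *Calb1* (3.46, adjusted p = 0.00451) and *Lrrc52* (4.74, adjusted p = 0.0203) rose, both with mean HC levels in the range of the SGN means or above it, 12.7 and 8.17 RPKM.

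*Th* encodes tyrosine hydroxylase, the rate-limiting enzyme of catecholamine synthesis, and marks type II neurons (chr7:142892752-142931128, minus strand). Its level was 0.0564, 2.13 and 0.941 RPKM at E15.5 and 6.57, 8.19 and 6.64 at P1. It stood at 5.63, 7.27 and 3.87 at P8, at 5.98, 12.5 and 7.12 at P14, and at 3.83, 0.371 and 0.615 at P30. The P1, P8 and P14 libraries overlapped and lay above all E15.5 and P30 libraries, so *Th* was highest at the middle ages. At the outer ages the libraries differed widely, with 2, 104 and 46 counts behind the E15.5 values and 272, 16 and 27 behind those of P30.

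*Th* rose from E15.5 to P1 (log2 fold change 3.59 ± 0.97 SE, 95% interval 1.55 to 5.63, adjusted p = 0.0255). The call was lost in 7 of 16 alternative fits, in which the adjusted p reached 0.124. Those included the fits without the first E15.5 library (2.31, adjusted p = 0.0676), the third E15.5 library (3.96, adjusted p = 0.0752) or the second P1 library (3.49, adjusted p = 0.0562). They also included the edgeR quasi-likelihood test (2.76, adjusted p = 0.0687). The call was kept without the second E15.5 library (4.61). P14 to P30 gave -2.87 ± 0.80 SE with an unadjusted p of 0.00235 and an adjusted p of 0.303. The E15.5 and P30 levels did not pass a test of their difference (0.91 ± 1.17 SE, 95% interval -1.55 to 3.38, adjusted p = 0.553), and the sign of that difference turned without the first E15.5 library (-0.35) or the first P30 library (-0.29).

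*Th* had 2, 0 and 0 counts in the HC libraries, all under the limit of 3 counts. Set against 3 counts in each HC library, the mean SGN level was at least 17.4-fold higher at E15.5 and at least 119-fold (P1), 93.1-fold (P8), 142-fold (P14) and 26.7-fold (P30) higher later. These bounds hold for group means and not for every library. The first E15.5 library, with 2 counts, was itself under the limit, and its 0.0564 RPKM lay below the HC bound of 0.06. The P30 mean rested mostly on the first library, at 3.83 RPKM against 0.371 and 0.615. Glia had 12, 6 and 0 counts, and the mean of SGNs was higher by 4.66 on the log2 scale (adjusted p = 0.00127), a call lost without the third glia library (3.49, adjusted p = 0.0259), where the limit is 0.01, and kept without the first (5.35). Among the genes that act with *Th* in making and taking up catecholamines, several were near 0 in the SGN libraries. *Ddc*, the enzyme gene after *Th* in the pathway, had group means of 0.00427 to 0.186 RPKM in SGNs and 0.901 in HCs, and *Gch1*, the gene of the enzyme that starts synthesis of the tyrosine hydroxylase cofactor, 0.0399 to 0.32. The dopamine transporter gene *Slc6a3* was at 0 in every library, and the noradrenaline transporter gene *Slc6a2* and *Dbh* had SGN group means of at most 0.0387 and 0.0053. The vesicular monoamine transporter gene *Slc18a2* stood at 3.2 to 7.39 RPKM, with no call among ages (F test, adjusted p = 0.105). Of the 12 genes of this list 5 were tested by age, and 1 was called from E15.5 to P30, against 34.6% of all genes. That was *Qdpr* (2.19, adjusted p = 0.00302), which recycles the cofactor and was higher at P30.

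*Etv4*, an ETS-family factor gene of the PEA3 group that responds to FGF and neurotrophin signalling through ERK, is the second type II marker (chr11:101769742-101785371, minus strand). Its level was 11.3, 8.19 and 8.07 RPKM at E15.5 and 2.82, 1.66 and 7.55 at P1. It stood at 0.555, 1.06 and 0.834 at P8, at 0.0276, 0.413 and 1.63 at P14, and at 1.09, 2.58 and 3.96 at P30. The E15.5 libraries lay above all others, P8 and P14 had the lowest means, and the P30 libraries lay above those of P8 but overlapped those of P14 and P1. *Etv4* fell by 2.17 on the log2 scale from E15.5 to P30 (log2 fold change -2.17 ± 0.60 SE, adjusted p = 0.00874). Without the first P30 library the value was -1.51 (adjusted p = 0.0829), and under the edgeR quasi-likelihood test -1.90 (adjusted p = 0.0966). No single step was called: E15.5 to P1 gave -1.49 (adjusted p = 0.0676), which passed without the third P1 library (-1.99, adjusted p = 0.0472), P1 to P8 gave -2.02 (adjusted p = 0.117), and P14 to P30 gave 2.94 ± 1.16 SE (adjusted p = 0.623).

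*Etv4* was 0.228, 0.165 and 0.0904 RPKM in HCs and 0.929, 0.0559 and 0.062 in glia. The mean of SGNs was higher than HCs by 3.40 ± 1.02 SE on the log2 scale (adjusted p = 0.00832), the call nearest its limit of 0.01 among the 6 tested members. It was lost in 14 of 28 alternative fits, 9 of them fits without a single library, in which the adjusted p reached 0.0567 (without the third HC library). Those 9 libraries were E15.5 replicate 1, P8 replicates 2 and 3, P14 replicate 2, P30 replicates 2 and 3, and all 3 HC libraries. The difference from glia, 3.20 ± 1.05 SE, was not called (adjusted p = 0.0158), but was called without the first P14 library (3.53, adjusted p = 0.0037). At P14 alone *Etv4* and the HC level overlapped, with a log2 fold change of 0.77 ± 1.36 SE (adjusted p = 0.672). The means of the other PEA3 genes were also lower at the middle ages than at E15.5, but unlike that of *Etv4* they were as high or higher at P30. *Etv5* had means of 14.2 RPKM (E15.5), 8.91 (P1), 5.82 (P8), 9.58 (P14) and 14.5 (P30), with an adjusted p of 0.0554 in the F test and 0.926 from E15.5 to P30. *Etv1* passed the F test (adjusted p = 0.000471), fell from 1.44 to 0.174 RPKM between E15.5 and P1 (log2 fold change -3.11, adjusted p = 0.0124) and was called higher at P30, with 2.77, than at E15.5 (1.04, adjusted p = 0.049). The 5 ERK feedback genes of the Sprouty and Spred families (*Spry1*, *Spry2*, *Spry4*, *Spred1*, *Spred2*) had adjusted p of 0.0537 to 0.6 from E15.5 to P30. Of these *Spry4* passed the F test (adjusted p = 0.00184) and fell from P1 to P8 (-1.10, adjusted p = 0.029), with means of 15.8 RPKM (E15.5), 10.4 (P1), 4.92 (P8), 4.98 (P14) and 9.94 (P30). From E15.5 to P30 the phosphatase gene *Dusp6* fell (-2.67, adjusted p = 0.0471).

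**Figure D3:**
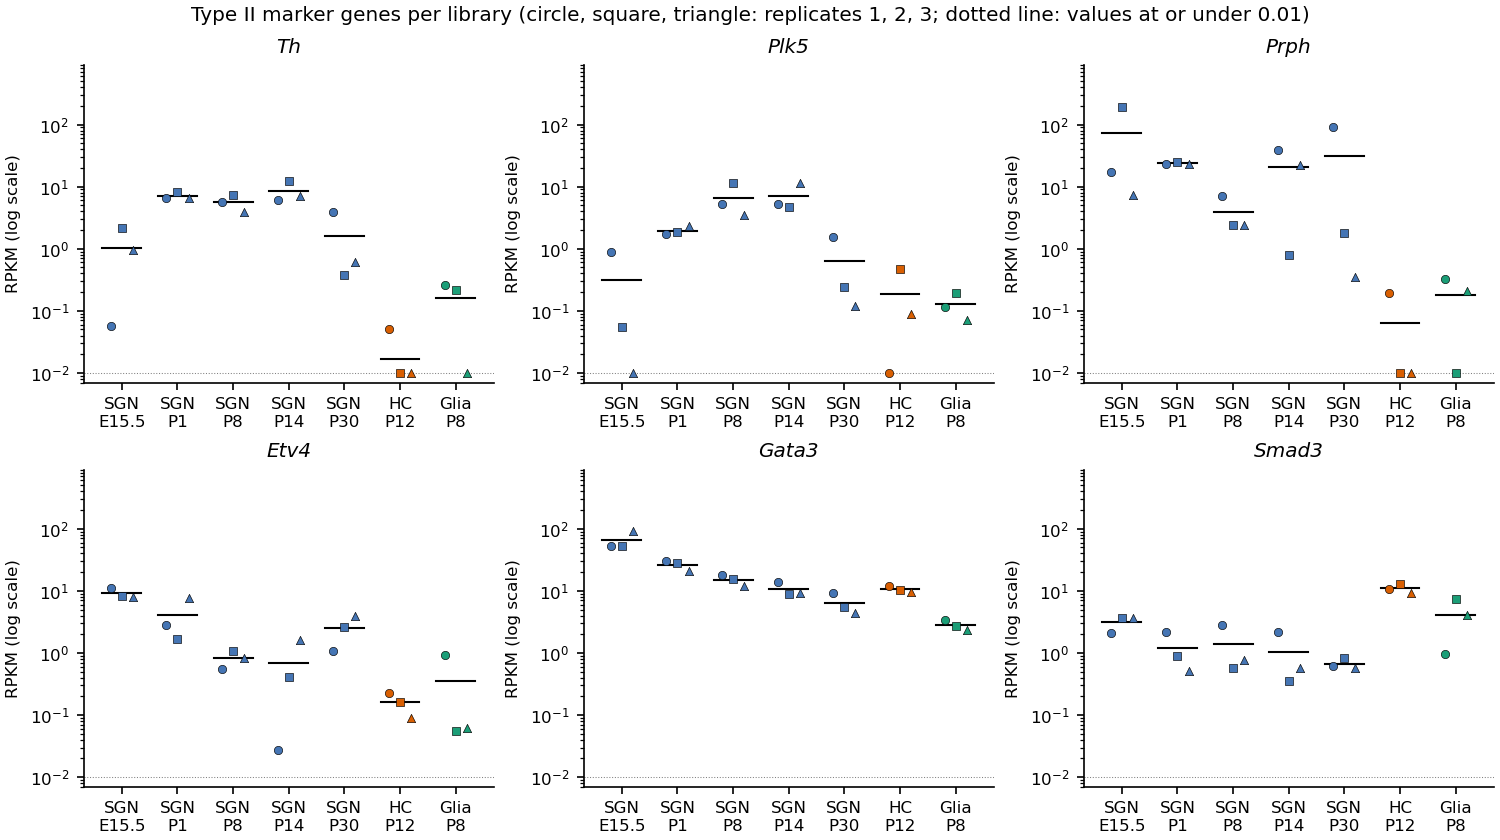
Level of *Th*, *Etv4* and 4 other markers linked to type II neurons in every library, in RPKM on a log axis, with a point for each library, the marker shape for the replicate and a bar at the group mean. *Th* and *Plk5* were high at the middle ages, *Gata3* and *Smad3* were lower at P30 than at E15.5, and *Prph* ranged from 0.347 to 91.3 within P30.

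Of the 5 other type II markers listed, 2 passed the F test, *Plk5* and *Gata3*, against 37.8% of all genes. *Plk5*, a polo-like kinase gene, resembled *Th* in its order of ages, with means of 0.308 RPKM in the E15.5 libraries, then 1.95 (P1), 6.67 (P8), 7.19 (P14) and 0.639 (P30) (F test, adjusted p = 0.00762). *Gata3*, a transcription factor gene of SGN development, fell from 65.7 to 6.35 RPKM between E15.5 and P30 (log2 fold change -3.37, adjusted p = 1.47e-06). *Smad3*, which encodes a transcription factor of TGF-beta signalling, fell from 3.14 to 0.67 RPKM over the same ages (-2.29, adjusted p = 0.0197), and is named here after its values were seen. *Ngfr*, the gene of the neurotrophin receptor p75, had group means of 83.8 to 111 RPKM at the 5 ages (F test, adjusted p = 0.564). *Prph*, the intermediate filament gene by which type II neurons are usually stained, was 17.2, 191 and 7.36 RPKM at E15.5, 23, 25 and 22.8 at P1, 7.03, 2.42 and 2.41 at P8, 38.7, 0.802 and 22.4 at P14, and 91.3, 1.82 and 0.347 at P30. It was not called among ages (F test, adjusted p = 0.479), and its highest P30 library held 264 times the level of the lowest. The first P30 library had the highest *Th*, *Prph* and *Plk5* of its age, with 3.83, 91.3 and 1.55 RPKM, but the lowest *Etv4*, 1.09. *Th*, *Etv4* and *Prph* had within-age SDs of 1.43, 1.43 and 2.56 log2 units, against a median of 0.55 over all genes tested, whereas *Pou4f1*, *Runx1* and *Lypd1* had 0.31, 0.23 and 0.45 and *Pcdh20* 0.54. That contrast did not extend to all listed markers of these subtypes, as the type II markers *Gata3* and *Ngfr* had 0.42 and 0.34 and the Ib markers *Lrrc52* and *Calb1* 1.53 and 0.81.

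*Anxa1* encodes annexin A1, a calcium-dependent phospholipid-binding protein with anti-inflammatory actions, and is another type II marker (chr19:20373428-20390944, minus strand). It was 1.53, 0.705 and 0.0185 RPKM at E15.5, 0.964, 0.137 and 0 at P1, and 31.6, 0 and 0 at P8. At P14 it was 9.38, 0 and 0.142, and at P30 1.31, 0 and 0. A single library held nearly all of it at P8, with 2683 counts against 0 and 0, and again at P14, with 571 against 0 and 6. The replicate numbered 1 was the highest at each of the 5 ages, and 6 of the 15 SGN libraries were at 0. HCs held 1.15, 0 and 0.446 RPKM and glia 0, 0.0666 and 19.8, so that no 2 neighbouring groups in the order of means were separate. When the filter was dropped or replaced, the adjusted p for *Anxa1* was 0.656 to 1 in every comparison by age or cell type.

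Fibroblast markers moved with *Anxa1* at 4 of the 5 ages. The summed level of 5 fibroblast genes (*Col1a1*, *Col1a2*, *Col3a1*, *Dcn*, *Lum*) was 113, 14.6 and 10.4 RPKM in the P8 SGN libraries, 32.4, 3.68 and 4.34 at P14, 17.8, 0.452 and 0.173 at P30, and 79.7, 4.54 and 4.05 at P1, in each case highest in the library with the highest *Anxa1*. At E15.5 the sums were 18.3, 25.4 and 4.61. HCs held 22.9 to 25.2 and glia 213, 369 and 267, the last of these in the glia library with 19.8 RPKM of *Anxa1*. Of 3 endothelial genes (*Pecam1*, *Cdh5*, *Cldn5*) the sum was 6.36, 0.0906 and 0.173 at P8, 36.4, 0.0568 and 0.129 at P1, and 1.12, 0 and 0 at P30. It was 2.34, 0.00858 and 0.0791 at P14. At E15.5 it was 0.632, 0.909 and 0.0466, highest in the second library and not in that with the most *Anxa1*. Haemoglobin genes (*Hbb-bs*, *Hba-a1*, *Hba-a2*) summed to 18.4, 0 and 0 at P8 and 88.2, 0 and 0 at E15.5. At P14 the haemoglobin sums were 0.972, 0.263 and 2.61, so there the highest was not in the library with the most *Anxa1*. All 3 endothelial genes were at 0 in replicates 2 and 3 of P30, and *Col3a1* was at 0 in those and in replicate 2 of P14. The 4 macrophage genes never summed to more than 1.54 in any library. The HC and glial sums were also highest in the library with the most *Anxa1* at P8 (29.6 and 539), P14 (49.3 and 191) and P30 (25.3 and 63.4). At P1 both were highest in the second library (47.6 and 62.9). At E15.5 the HC sum was highest in the first library (18.9) and the glial sum in the third (78.5). The part of any of these cells in the *Anxa1* values was not tested.

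**Figure D4:**
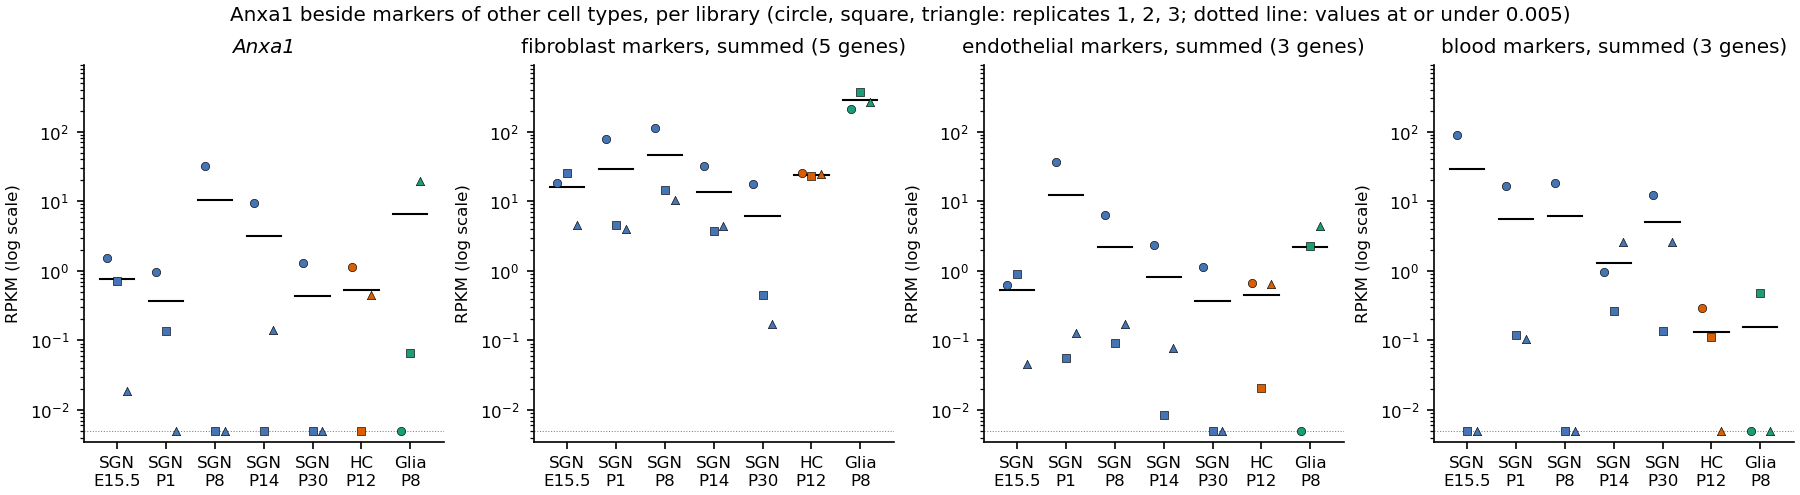
Level of *Anxa1* in each of the 21 libraries beside the summed level of fibroblast, endothelial and blood genes in the same library, in RPKM. The P8 SGN library with 31.6 RPKM of *Anxa1* had a fibroblast sum of 113, and those with 0 had 14.6 and 10.4.

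Of 11 genes of other annexins and of formyl peptide receptors, 6 were tested by age. *Anxa5* (log2 fold change 2.13), *Anxa6* (3.24), *Anxa7* (2.84) and *Anxa11* (2.69) rose from E15.5 to P30, and *Anxa2* and *Anxa4* were not called. Of all genes 34.6% were called between those ages. *Anxa4* and *Anxa5* had their highest group means in HCs, 19.5 and 275 RPKM, and *Anxa2* in glia, 39.6. The receptor genes *Fpr1*, *Fpr2* and *Fpr3*, through which annexin A1 acts on leukocytes, had SGN group means of at most 1.27 RPKM and none passed the filter.

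Across cell types, all 6 tested members differed between the mean of the SGN ages and HCs at adjusted p below 0.01 and more than 4-fold, 5 higher in SGNs and *Pcdh20* higher in HCs, where 26.8% of the 17531 genes tested were called. Between SGNs and glia 4 of the 6 were called, all higher in SGNs (*Pou4f1*, *Runx1*, *Lypd1*, *Th*), against 24.7% of all genes. *Pcdh20*, with a log2 fold change of 1.89 ± 0.65 SE, was not called there (adjusted p = 0.0207). For the groups closest in age, P14 SGNs and P12 HCs, 5 of the 6 were called, against 23.1% of genes, and for P8 SGNs and P8 glia 5 of the 6, against 20.9%. In the latter *Pcdh20* was higher in SGNs (3.14 ± 0.67 SE, adjusted p = 0.000818), a call lost without the first glia library (2.21, adjusted p = 0.0144). These comparisons share SGN libraries with each other and with those by age. Of the 9 other delta-protocadherins tested across cell types, *Pcdh8* was also called higher in HCs than in SGNs (-2.86, adjusted p = 0.00968), and *Pcdh10* (5.45), *Pcdh17* (6.97) and *Pcdh19* (7.50) were called higher in SGNs.

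**Figure D5:**
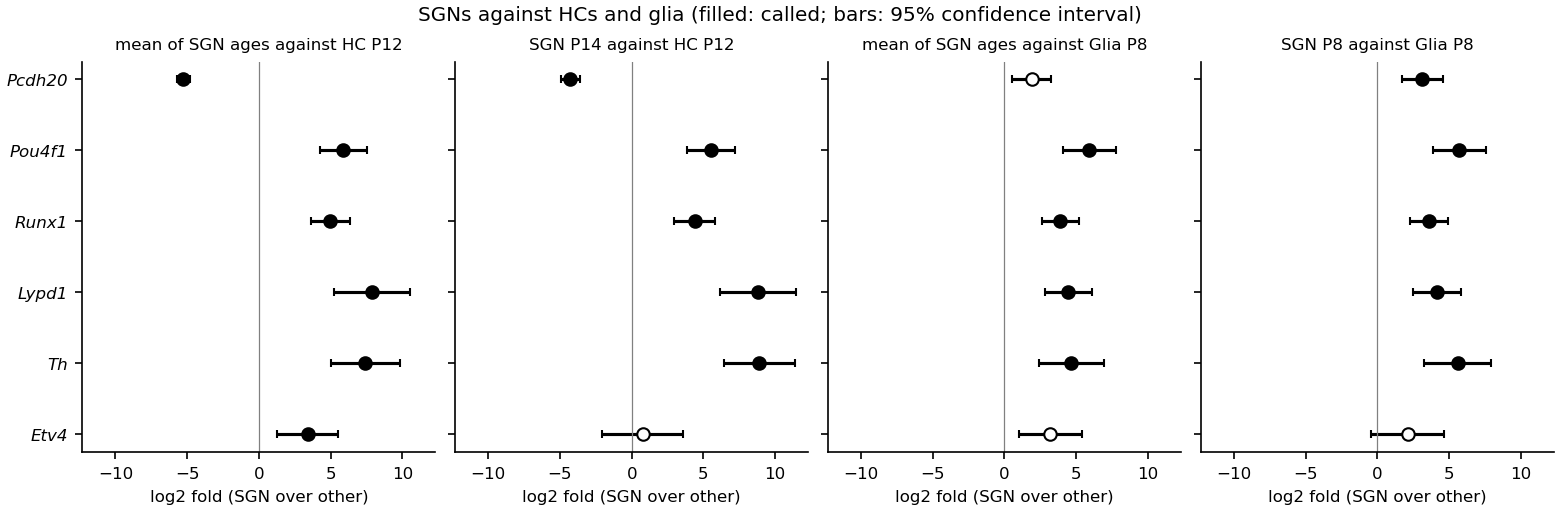
Difference of the 6 tested markers between SGNs and HCs or glia, as log2 fold change with its 95% interval from limma-voom, positive where SGNs were higher. *Pcdh20* lay on the HC side in both HC comparisons, at -5.27 and -4.29, and the interval of *Etv4* in P14 SGNs against HCs included 0.

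By likeness over the 15 SGN libraries (Pearson r of log2 of TPM, length-scaled shares of each library, plus 1, over 7860 genes), the neighbours of *Pcdh20* were *Mylf-ps* and *Metrnl* (both r = 0.96) and *Myl1* (0.94), and those of *Th* were *Metrnl* again (0.89), *Afap1l1* (0.88) and *Grik3* (0.86). *Runx1* was closest to *Asxl3* (0.98), *Mindy3* and *Crmp1* (both 0.97), *Pou4f1* to *Mtus2* (0.93), *Neto2* and *Bbs10* (both 0.89), and *Lypd1* to *Ndufb4c*, *Sez6l2* and *Plekhm3* (all 0.90). *Etv4* was closest to the predicted genes *Gm44433*, *Gm43826* and *Gm45652* (all 0.90). *Anxa1* was closest to the epithelial adhesion gene *Epcam* (0.89) and to the immediate-early genes *Zfp36* and *Junb* (both 0.86). The neighbours of all members but *Anxa1* changed in part or whole with the scaling. On the TMM scale the 3 closest genes included 0 of these 3 for *Pou4f1*, 1 for *Lypd1* and *Th*, 2 for *Pcdh20*, *Runx1* and *Etv4*, and 3 for *Anxa1*, and the r of *Pou4f1* with *Neto2* was 0.75. The points share library, age, depth and composition, so these values are descriptions, and the counts of the pseudogene *Mylf-ps* and of *Ndufb4c* may include reads from their near-identical relatives.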

How the data were processed

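Bulk RNA-seq was measured in 21 libraries of 7 groups. The deposited values are raw counts per gene, made by the authors with STAR 2.4.0i on mm10 and featureCounts with GENCODE vM15, together with a gene length. Pair, strand and multimapping settings are not given in the sources used here. A median of 67.9% of small counts were even, as when each read of a pair counts by itself. RNA of few cells was amplified with oligo-dT and random primers (Ovation RNA-Seq V2), and libraries had been prescreened by qPCR for marker genes, among them *Sox10* and *Myo6*. The labels state that cells were sorted by hand, whereas the study's methods describe flow sorting of HCs. No sequencing batch is labelled.

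Symbols were assigned to 52403 identifiers. Genes above 1 CPM in all 3 libraries of at least 1 group were kept (15113 among SGNs, 17531 over all libraries), scaled by TMM and fitted with limma-voom (limma 3.58.1, edgeR 4.0.16, R 4.3.3), with Benjamini-Hochberg adjustment over all genes. Filter, scaling and test are those the study's methods name, although the filter as worded there kept fewer genes here than those methods state. Changes with age used adjusted p below 0.05 and 2-fold, cell types adjusted p below 0.01 and 4-fold. Errors are SD of levels or SE of fold changes. Fits were tested on simulated counts. Alternatives were other scalings, filters, edgeR quasi-likelihood, DESeq2 1.42.0, sample quality weights, a replicate block, fewer groups and each library left out. Genes named beside the members came from lists by pathway and marker type, and likeness named the 3 genes with the highest r among those reaching a mean of 10 TPM at an age. The members and lists were chosen with earlier results of these data known. Intervals of fold changes rest on the spread between libraries, while limits from counts cover counting error only.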

Additional observations from a re-analysis of the deposited data

How the results depend on the processing

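Under the alternatives, 181 counts of calls stayed within 1.5 times of the reported value and 11 did not. Sample quality weights gave 1 call in place of 3 from E15.5 to P1, 1 in place of 0 from P8 to P14 (*Lypd1*) and from P14 to P30 (*Th*), 2 in place of 4 for SGNs against glia, and 2 in place of 5 for P8 SGNs against glia. DESeq2 gave 2 in place of 1 from P1 to P8 and 1 in place of 0 from P8 to P14. A fit of only the groups compared gave 3 in place of 5 for P8 SGNs against glia. Leaving out a single library gave 0 to 1 calls from P8 to P14. Leaving out the first library of every group, a choice made after seeing the data, gave 2 in place of 4 from E15.5 to P30 (*Runx1* and *Lypd1* remained). The cause was not tested in any of these cases. For single markers, 1079 values were unchanged in call and direction. These include F tests, which have no direction, and the likeness neighbours of *Pcdh20*, *Runx1*, *Etv4* and *Anxa1*, which have neither. Another 47 values lost a call, 21 gained one, and 9, none of them called, changed sign. Those were *Lypd1* from P1 to P8 (0.13 without the first libraries, and -0.31 to 0.01 when single libraries were left out, the highest without P1 replicate 1), *Pcdh20* from P8 to P14 (0.08 with quality weights, and -0.61 to 0.03, the highest without P8 replicate 1), *Etv4* from P8 to P14 (-2.78 to 0.03, the highest without P14 replicate 1), *Th* from E15.5 to P30 (-1.58 without the first libraries, and -0.35 to 1.95, with -0.35 without E15.5 replicate 1 and -0.29 without P30 replicate 1) and *Etv4* in P14 SGNs against HCs (-0.45 to 2.32, the lowest without P14 replicate 3).

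The replicate numbers were not treated as pairs, since the correlation of same-numbered libraries' deviations ran from -0.06 to 0.05 between E15.5 and P1 and from 0.08 to 0.37 between P14 and P30, and in no comparison were all 3 above 0.1. With the replicate number as a block the P8 to P14 count was 1 in place of 0 (*Lypd1*, log2 fold change 1.24, adjusted p = 0.0422). Scaling by library size alone gave a median log2 fold change of all genes of -0.49 in place of -0.01 from E15.5 to P30. In SGNs against HCs it gave -0.54 in place of 0.02, and in P14 SGNs against HCs -0.75 in place of -0.04. It turned the split of calls over all genes from E15.5 to P30 from 2778 higher and 2446 lower to 1698 and 3973. No called direction of a member turned under it.

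Calls over all genes moved by over 1.5 times in the following fits. Quality weights gave 552 in place of 1248 (E15.5 to P1), 174 in place of 81 (P8 to P14), 110 in place of 9 (P14 to P30), 2017 in place of 4326 (SGNs against glia) and 1942 in place of 3662 (P8 SGNs against glia). DESeq2 gave 219 (P8 to P14) and 97 (P14 to P30). The quasi-likelihood test gave 649 in place of 1124 (P1 to P8) and 34 (P8 to P14), and the replicate block 146 and 23 at both later steps. Fits of only the groups compared gave 453 (E15.5 to P1), 52 and 2 at both later steps, and 2145 for P8 SGNs against glia. Without the first libraries the later 3 steps gave 625, 14 and 1, and without a filter P14 to P30 gave 15. Depth limits *Th* in HCs, where every library was at or under 3 counts.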
